A study of Mus musculus with 2 samples.

Results

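A stretch of proximal mouse chromosome 17 was described here through its H3K4me3 regions, in mm9 coordinates. Its members were chosen by position from the one deposited region list, as the regions on chromosome 17 that start from 6000000 to 14999999, and 446 of the 41561 listed regions met this rule. They make up 23.1% of the 1930 regions listed on chromosome 17. The list itself was selected on measured values: a region entered it only where tags of the Mll-PTD library exceeded those of the wild-type (WT) library at least 4-fold. Ratios, tag counts and shares of members are therefore given as a description, with no test, and a region with more tags in WT could not be a member.

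The tags came from chromatin immunoprecipitation of H3K4me3 and sequencing of bone marrow cells of C57BL/6 mice, labelled LSK and enriched on magnetic beads for CD117 and then for Sca1. Of the 2 libraries, 1 was made from WT mice. The other came from mice heterozygous for Mll-PTD, a knock-in allele in which part of Mll is duplicated in tandem. Age, sex and the number of mice behind each library are not given in the sources used here. Sequencing gave 58083118 tags for Mll-PTD and 43579250 for WT, the latter recovered from the authors' scaling. With 1 library per genotype, no difference has a replicate check. All intervals are 95% intervals that cover counting error alone. They treat regions as independent, although some members had the same length and tag counts as another member, as described below. Fewer cells that carry the mark and less mark per cell cannot be told apart in such bulk material, and the series has no expression values with which the LSK label could be checked.

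H3K4me3, trimethylation of lysine 4 of histone H3, marks the starts of active genes and of genes held ready for expression. Mll (now Kmt2a) encodes one of the methyltransferases that place it, and the duplication repeats an internal part of that protein. LSK cells are the marrow fraction in which blood stem and early progenitor cells are found. The proximal part of chromosome 17 is known as the t complex. In wild mice it occurs in variant forms, the t haplotypes, which carry inversions, distort transmission through the sperm and hold lethal mutations. Duplicated gene families expressed in testis lie there, beside the imprinted Igf2r cluster.

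Genes known from this part of the chromosome were looked up by name. All 37 genes of 4 lists were found on chromosome 17 in the RefSeq table of the later GRCm38 build, 3 of them under a newer symbol; coordinates of that build cannot be carried over to mm9. Their order there began with Synj2, Tulp4 and Ezr and passed through T, the brachyury gene of mesoderm formation, and Qk, an RNA-binding protein of myelinating cells. Further on came Igf2r, the imprinted receptor that clears IGF2, whose silencing on the paternal chromosome needs the overlapping RNA Airn. After it came Tcp1, a subunit of the chaperonin that folds actin and tubulin, then Tcp10b, the kinase genes Smok2a and Smok2b, and Tcp10c. Afdn, formerly Mllt4, a junction protein and known fusion partner of MLL in leukaemia, followed, and Tcte3 came last. No mm9 gene positions were used, so no region below is assigned to a gene or promoter, and whether each gene lies inside the window was not checked.

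Members were crowded from 6 to 9 Mb and from 13 to 14 Mb and sparser elsewhere in the window. The 3 Mb from 6 to 9 Mb held 279 regions (62.6% of the members, 93 per Mb), the 4 Mb from 9 to 13 Mb held 44 (11 per Mb), and the 2 Mb from 13 to 15 Mb held 123, of which 103 lay in the first of them and 20 in the last. By single Mb, the fullest were 6 to 7 Mb with 157 regions, then 13 to 14 Mb, 7 to 8 Mb with 74 and 8 to 9 Mb with 48. These ranked 9, 18, 30 and 61 among the 2414 autosomal 1-Mb bins that held a region, whose median was 12. The bin from 10 to 11 Mb held 7 and ranked 2000. The crowding therefore belongs to parts of the window and not to its whole length.

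**Figure D1:**
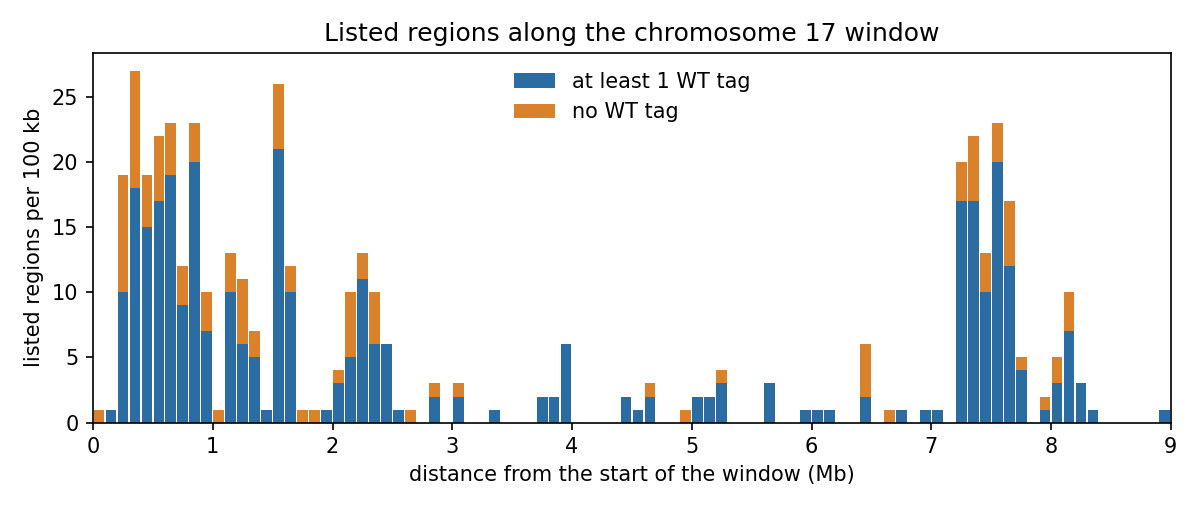
Listed regions per 100 kb (vertical axis) along the 9 Mb of the window (horizontal axis, distance from its start), split into regions with at least 1 WT tag (blue) and none (orange). Of the 90 bins, 21 hold 10 regions or more, and 29 are empty.

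At finer scale, 355 of the 446 members (79.6%) lay in 21 of the 90 bins of 100 kb, with up to 27 in a bin. Members less than 50 kb apart formed 41 chains, 20 of them single regions. The 7 chains of 30 or more held 368 members (82.5%) within 1928 kb. The fullest ran from 6219391 to 6702489, with 111 members that covered 24.7% of its 483 kb. Both chains near 13 Mb were more densely covered: 55 members from 13218590 to 13442219 covered 40.2% of it, and 45 from 13501998 to 13725678 covered 38.8%. The densest of the 7 was the chain from 7504870 to 7645426, where 38 members covered 47.1%. The chain from 8068144 to 8453384 held 43 mostly short members that covered 8.93%. The longest stretches without a listed region ran from 14318031 to 14942997 and from 9999206 to 10439880. Some members matched another member in length and in the tags of both libraries. Those starting at 6676396 and 6881598 were each 1310 bases long, with 114 Mll-PTD and 13 WT tags. Those starting at 6681714 and 6886916 were each 1620 bases long, with 117 and 10. Further matches included those starting at 6684327 and 6889529, at 6357839 and 6523874, and at 6386692 and 6552720. The members starting at 7589107 and 13323946 matched although they lay in different crowded parts. Matches were not counted, so the number of separate cases is not known and intervals may be too narrow. Each was counted as a separate member throughout, so counts and intervals take matching members as independent. Why they match was not tested.

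The median distance from one member to the next was 2631 bases, against 25289 for other autosomal regions and 26981 for the rest of chromosome 17. Members were also longer, with a median of 743 bases (quartiles 500 and 1310) against 500 (quartiles 500 and 781) in the 37407 other autosomal regions. The minimum length of 500 bases was held by 37.9% of members and by 57.0% of the others, and 156 members (35%) reached 1000 bases against 17.7%. Together the members covered 532 kb, or 5.91% of the window.

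In Mll-PTD the median member held 39.8 scaled tags (quartiles 25.5 and 69.6), and in WT 4 tags (quartiles 1 and 8). Scaled tags are Mll-PTD tags brought to the size of the WT library by the authors. Per kb, the Mll-PTD level of members was close to that elsewhere, with a median of 50.1 scaled tags (quartiles 46.3 and 55.6) against 49.6 in other autosomal regions (46.2 and 55.9). The WT level was lower, with a median of 4.74 tags per kb (0.868 and 8) against 6.37 (3.66 and 10). Per region the order was another: the median of other autosomal regions was 29.3 scaled Mll-PTD tags, under that of the longer members, and 4 WT tags, the same as in members. Summed over all members, 28071 scaled Mll-PTD tags stood against 3264 WT tags, a ratio of 8.60 (8.30 to 8.92). For other autosomal regions the ratio of sums was 7.75 (7.71 to 7.78), and for the rest of chromosome 17 it was 8.14 (7.96 to 8.33).

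An even spread over the genome size used by the caller would give 21.8 tags per kb in either library at the WT size. Summed over members, WT stood at 0.281 of that level and Mll-PTD at 2.42 times it. Both values depend on how the list was made, since a region needed enough Mll-PTD tags to be called and a 4-fold excess.

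The 4-fold rule leaves the upper range of ratios free. By the fold in the authors' deposited table, 278 members (62.3%, exact binomial interval 57.7% to 66.8%) reached 8-fold, where the background over all 41561 regions was 47.0%. That table counts a WT value of 0 as 0.5, and with such regions set against 3 WT tags the number was 248 (55.6%), against 43.3% over the whole list. Nothing is tested by these shares, since the list was called on the same contrast. In the 336 members that had a WT tag, ratios had a median of 7.96, with quartiles of 5.75 and 11.9, against 6.77 (5.1 and 10.5) in other autosomal regions. Ratios of 4 to 6 were found in 27.4% of these members and in 39.3% of the others, ratios of 8 to 12 in 25% and 19.0%, and ratios of 16 or more in 15.2% and 11.8%.

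**Figure D2:**
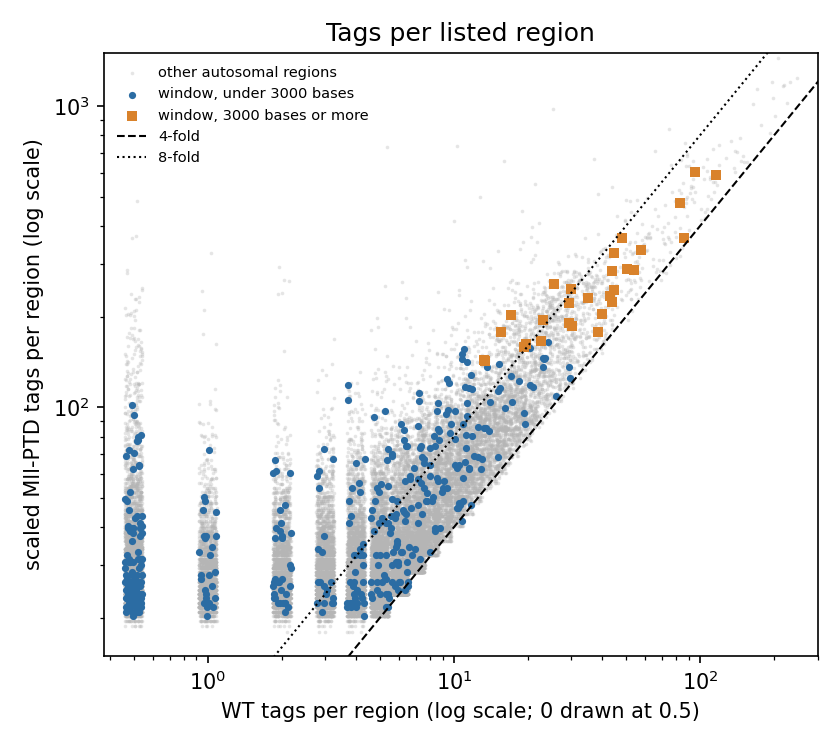
Scaled Mll-PTD tags (vertical) against WT tags (horizontal) for each listed region, both on log scales, with 0 WT tags drawn at 0.5 and WT values spread slightly sideways; a few other autosomal regions lie outside the axes. Members under 3000 bases (blue) reach from 0 WT tags upward, while the 29 members of 3000 bases or more (orange) all have WT tags and lie between ratios of 4.35 and 11.9; dashed and dotted lines mark 4-fold and 8-fold.

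No WT tag at all was found in 110 members, 24.7% (exact binomial interval 20.7% to 28.9%), where the background over the whole list was 13.5%. Other autosomal regions had 13.7% (13.4% to 14.1%) and the rest of chromosome 17 had 15.4% (13.6% to 17.4%). The interval of the window overlapped neither, but neighbouring regions of 1 library are not replicates, so the difference was not tested. By number of WT tags, members were most frequent at 0. From 1 to 6 WT tags there were 27, 34, 20, 37, 35 and 38 members. In members of exactly 500 bases 64 of 169 had no WT tag and 14 had 5, whereas in other autosomal regions of that length 3517 of 21323 had none and 3611 had 5. The order of these classes thus differed inside and outside the window.

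Longer members less often lacked a WT tag, but in each of the 5 length classes the share was above that of other autosomal regions. It was 37.9% (30.5% to 45.6%) against 16.5% at 500 bases, 32.1% (20.3% to 46.0%) against 15.7% at 501 to 750 bases, and 21.5% (12.3% to 33.5%) against 12.7% (11.6% to 13.7%) at 751 to 1000 bases. At 1001 to 1500 bases it was 13.8% (6.53% to 24.7%) against 5.58% (4.79% to 6.47%), and above 1500 bases 5.49% (1.81% to 12.4%) against 2.09% (1.65% to 2.61%). At 751 to 1000 and above 1500 bases the intervals overlapped, so those gaps were not resolved by them. The greater length of members therefore ran opposite to their higher share without a WT tag.

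The ratio of summed tags split at 1500 bases. Below it, members stood higher than other autosomal regions in all 4 classes, with 10.8 (9.72 to 11.9) against 7.68 at 500 bases, 10.6 (9.13 to 12.3) against 8.58 at 501 to 750 bases, 9.85 (8.75 to 11.1) against 8.44 at 751 to 1000 bases, and 11.1 (10.05 to 12.4) against 7.95 at 1001 to 1500 bases. Above 1500 bases both stood at nearly the same level, 7.29 (6.96 to 7.64) and 7.28 (7.23 to 7.33). In regions of 3000 bases or more the order was turned, with 6.30 (5.94 to 6.70) in the window and 7.20 (7.12 to 7.27) elsewhere.

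**Figure D3:**
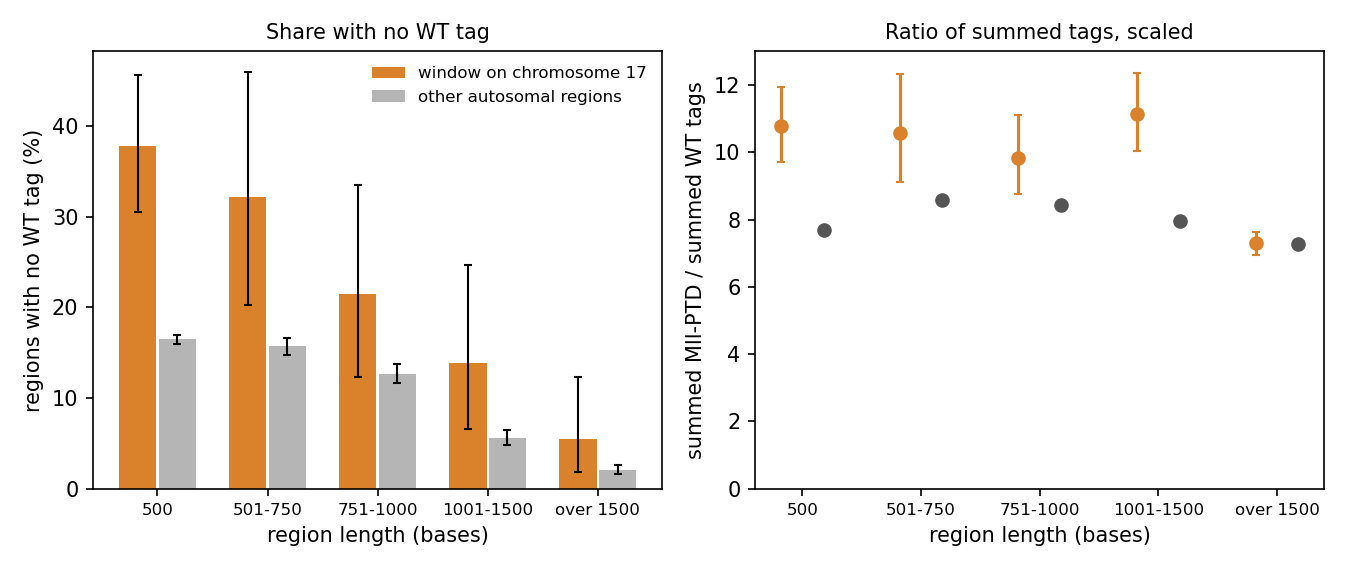
Left, share of regions with no WT tag (percent, exact binomial 95% intervals) and right, ratio of summed scaled Mll-PTD tags to summed WT tags (95% counting intervals), by region length in bases, for the window (orange) and other autosomal regions (grey). The window lies above in all classes on the left and in those up to 1500 bases on the right, and at 7.29 against 7.28 in the longest class the ratios meet.

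The longest members had more WT tags per kb than the rest. The 29 of 3000 bases or more held 27.4% of the scaled Mll-PTD tags of the window and 37.4% of its WT tags. Their median WT level was 8.30 tags per kb, against 6.56 in the 896 other autosomal regions of that length, while their median Mll-PTD level was 52.0 in both. By sums, which the ratio of sums uses, both levels were lower in the window. Summed, these members held 8.68 WT tags per kb against 10.1 elsewhere, and 54.7 scaled Mll-PTD tags per kb against 72.7. Their median ratio was 6.40, against 7.81 elsewhere, and 8 of them (27.6%) reached 8-fold, against 46.1% elsewhere at that length. By place, 15 lay from 13 to 14 Mb, with a ratio of sums of 6.09 (5.65 to 6.57). The other 14, all from 6 to 9 Mb, had 6.67 (6.05 to 7.37), an interval that holds the 7.20 of long regions elsewhere. The interval at 13 to 14 Mb lay below that value. The intervals of both places overlapped, so no difference between the places was resolved.

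By total tags the leading 10 members were all long, and 7 of them lay from 13 to 14 Mb. First was 13533504 to 13543889, 10385 bases, where 789 Mll-PTD tags (592 scaled) and 121 WT tags gave a ratio of 4.89 (4.04 to 5.97). Next came 13234778 to 13245795, the longest member at 11017 bases, with 808 (606.2 scaled) against 101 and a ratio of 6.00 (4.88 to 7.46). The region 13642390 to 13648999 had 635 (476.4 scaled) against 77 and a ratio of 6.19 (4.88 to 7.94). The intervals of these 3 overlap, so their order by ratio is not resolved at this depth.

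Lowest of the 10 by ratio was 13523966 to 13530808, with 487 Mll-PTD tags (365.4 scaled) against 84 and a ratio of 4.35 (3.44 to 5.55). The region 13584009 to 13591479 had the same 487 Mll-PTD tags but 48 in WT, for a ratio of 7.61 (5.65 to 10.5), the highest of the 10. These 2 members are the lowest and highest of the 10, so their contrast was chosen by its size and is a description. The other 5 had ratios from 5.39 to 6.94, and none of the 10 reached 8-fold. The 5 longest members are those 5 named here. Without the 10, the ratio of sums of the window was 9.35 (8.98 to 9.73), and that of the 10 themselves was 5.76 (5.32 to 6.25).

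Several of these long members adjoined each other. From 13517557 to 13543889, 4 members covered 86.8% of 26.3 kb and held 1783 Mll-PTD tags (1337.8 scaled) against 274 WT tags, a ratio of 4.88 (4.30 to 5.56). Their WT levels lay close together, from 11.7 to 12.3 tags per kb. From 7607857 to 7618432, 2 members covered 94.1% of 10.6 kb, with 820 against 96 tags and a ratio of 6.41 (5.18 to 8). In both stretches the ratio and its interval lay under the 8.60 of all members, which include them.

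The 10 highest ratios, ranked with a pseudocount of 1 among the 290 members with enough tags, all belonged to members with no WT tag. Each is given against a floor of 3 WT tags, beside the exact 95% lower limit of the ratio, which also covers the Mll-PTD count and lies lower. The first, 8863785 to 8864837, had 136 Mll-PTD tags (102 scaled) and a ratio of 34 against that floor, with an exact lower limit of 27.3. The second, 7892954 to 7893983, had 126 (94.5 scaled) and a ratio of 31.5 against the floor, with an exact lower limit of 25.3. Both were compact, at 97.0 and 91.8 scaled tags per kb, well over the member median of 50.1. The other 8 were 1084 to 1890 bases long, with ratios of 21.5 to 27 against the floor and exact lower limits of 17.1 to 21.6, and 4 of them (6661212 to 6663102, 6798394 to 6800239, 7332516 to 7334360 and 8189021 to 8190845) held from 37.8 to 40.9 scaled tags per kb. Those 4 and the region 6421234 to 6423095 were much alike, at 1824 to 1890 bases and 92 to 108 Mll-PTD tags. Whether they share a sequence was not tested, so they may not be separate cases. A ratio against the floor is not a measured ratio, and ranking by it would give another order. Without a pseudocount, 10 members with a WT tag had ratios above 34, the highest value against the floor. The highest, 13924764 to 13926359, chosen after its values were seen, had 96 Mll-PTD tags (72 scaled) against 1, a ratio of 72 (12.6 to 2874).

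By height of the tallest peak, a score of the caller, the leading member in the authors' deposited table was again 8863785 to 8864837 with 84, and 7892954 to 7893983 had the rank of 5 with 62. Between them came 6429870 to 6431503, scoring 73 in the authors' deposited table, with 181 Mll-PTD tags (135.8 scaled) against 24 in WT and a ratio of 5.66 (3.68 to 9.06). The region 6807080 to 6808698, which scored 65 in the authors' deposited table, had 167 (125.3 scaled) against 28 and a ratio of 4.48 (2.99 to 6.94). Also at 65 in the authors' deposited table stood 11148078 to 11148578 in the sparse middle, with 78 (58.5 scaled) against 11 and a ratio of 5.32 (2.82 to 11.1). Tall peaks were thus found both with no WT tag and with WT levels of 14.7 to 22 tags per kb. No member matched the tallest peaks of the list, since the highest score among other autosomal regions was 1016 in the authors' deposited table, and 86.1% of members scored under 40 there, against 81.9%.

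Members without a WT tag were scattered, and shorter than members with one, whose median was 811 bases. Their own median length was 500 bases (quartiles 500 and 772.5), the longest had 1890, and 14 reached 1000 bases. Other autosomal regions without a WT tag had the same median but an upper quartile of 634 bases. There 68.6% had exactly 500 bases, against 58.2% of these members. Their median Mll-PTD signal was 26.3 scaled tags, which against the floor of 3 WT tags is a median ratio of 8.77, in a range of 6.77 to 34. These are not exact limits: for 26.3 scaled tags and no WT tag the exact lower limit is 6.75. Per kb, their Mll-PTD level had a median of 48, and members with a WT tag had 51.2. In order along the chromosome they fell into 82 runs, of which 58 were single regions, 20 were pairs and 4 were runs of 3. The run from 6360651 to 6370509 held 134 Mll-PTD tags over 3 regions against 0 in WT, within 9.86 kb. The run from 12479990 to 12640761 held 209, but it spanned 160.8 kb and is a run in order only. Where the next member lay within 10 kb, it had no WT tag in 22 of 82 cases (26.8%, 17.6% to 37.8%) after a member without one and in 63 of 270 (23.3%, 18.4% to 28.8%) after a member with one. These shares did not differ beyond counting error. Elsewhere on the autosomes they were 22.8% (20.8% to 25%) and 11.3% (10.7% to 11.9%).

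Along the window the share without a WT tag varied little where there were enough members to tell. It was 26.1% of 157 (19.4% to 33.7%) from 6 to 7 Mb, 27.0% of 74 from 7 to 8 Mb, 29.2% of 48 from 8 to 9 Mb and 20.4% of 103 (13.1% to 29.5%) from 13 to 14 Mb, with overlapping intervals. In the crowded 100-kb bins it was 24.8% (20.4% to 29.6%) and in the others 24.2% (15.8% to 34.3%), a difference within counting error. The ratio of sums was 8.36 (8.05 to 8.69) in the crowded bins and 10.5 (9.46 to 11.8) in the others, but the median log2 ratios, with a pseudocount of 1, were 3.10 and 3.09. Of the 29 members of 3000 bases or more, 28 lay in the crowded bins. The middle bins had few members, and their shares ran from 7.14% of 14 to 45.5% of 11 (16.7% to 76.6%). The bin from 12 to 13 Mb, where that last value stood, had 424.8 scaled Mll-PTD tags against 23 WT tags, a ratio of 18.5 (12.2 to 29.4). From 11 to 12 Mb 446.6 stood against 68, a ratio of 6.57 (5.10 to 8.57), and these neighbouring bins did not overlap in their intervals. They hold the highest and lowest ratio among the bins of the window, on 11 and 12 members. Their contrast was thus chosen by its size and is a description.

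**Figure D4:**
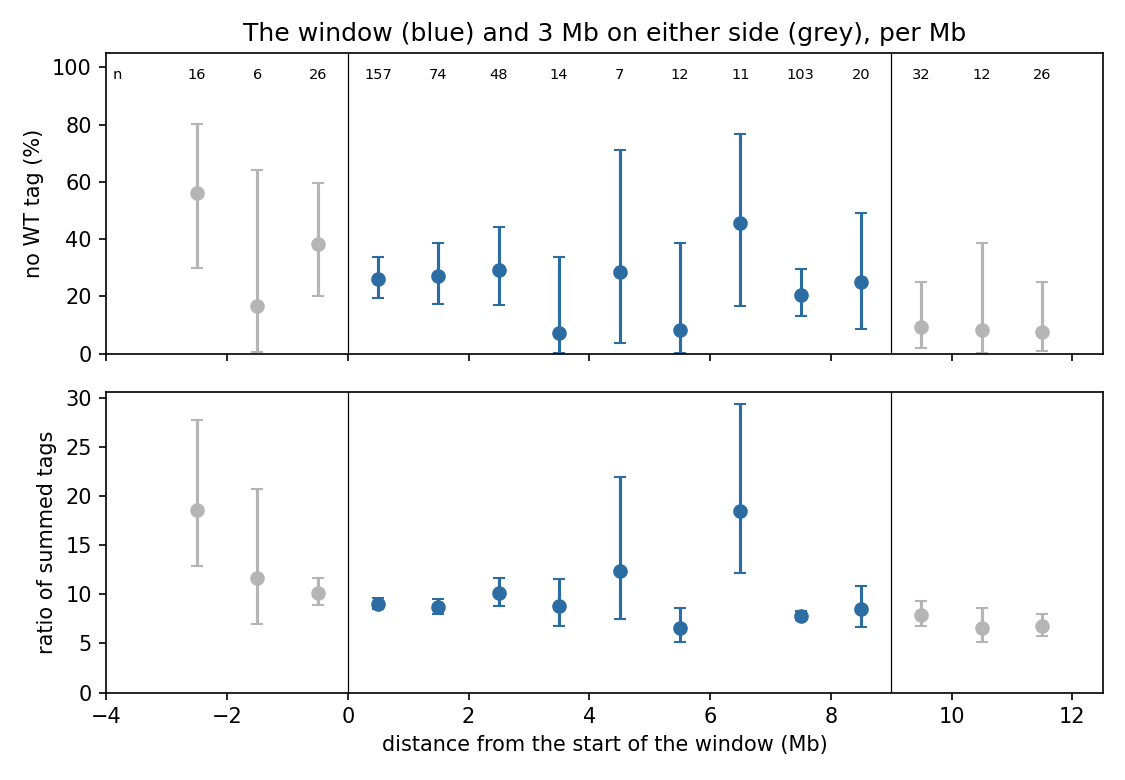
Share of listed regions with no WT tag (top, percent) and ratio of summed scaled Mll-PTD to WT tags (bottom) per Mb, against distance from the start of the window in Mb, with 95% counting intervals and the number of regions (n) printed above; blue is the window, grey the 3 Mb on either side. The bins with 48 or more regions lie between 20.4% and 29.2%, and the 3 bins after the window lie under 10%.

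The edges of the window are edges of the rule. The 3 Mb before it held 48 regions, of which 20 (41.7%, 27.6% to 56.8%) had no WT tag, with a ratio of sums of 11.2 (9.88 to 12.7). The 3 Mb after it held 70, of which 6 (8.57%, 3.21% to 17.7%) had none, with a ratio of 7.20 (6.49 to 8.01). The intervals of these flanks did not overlap, and the window lay between them on both measures. The first member, 6005710 to 6006210, had 35 Mll-PTD tags (26.3 scaled) against 0 in WT, and the nearest region before it, 5943516 to 5944016, had 40 (30 scaled) against 3. The last member, 14942998 to 14943498, had 41 (30.8 scaled) against 6, and the nearest after it, 15003535 to 15005623, had 130 (97.5 scaled) against 23.

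The share without a WT tag was next set beside 3 other crowded stretches of the list. The 24.7% of the window stood beside 18.1% (15% to 21.6%) on chromosome 14 from 42 to 45 Mb, 9.88% (7.37% to 12.9%) on chromosome 7 from 21 to 24 Mb and 6.60% (4.43% to 9.40%) in a crowded stretch of distal chromosome 4. The interval of the window overlapped that of chromosome 14 but not the other two. In ratio of sums, 8.60 in the window stood beside 8.67 (8.36 to 9) on chromosome 14, 9.14 (8.75 to 9.54) on chromosome 7 and 6.79 (6.59 to 7) on chromosome 4, and here chromosome 4 alone had no overlap with the interval of the window. The share at 8-fold in the authors' deposited table was 62.3% in the window. It was 59.2% (54.9% to 63.3%) on chromosome 14 and 60.1% (55.6% to 64.5%) on chromosome 7, both overlapping the window. On chromosome 4 it was 38.2% (33.6% to 43.0%). The share of long members was nearest to that of chromosome 4, with 6.50% of the window and 6.84% of that stretch reaching 3000 bases, against 2.56% on chromosome 14 and 1.65% on chromosome 7. Close spacing was shared by these stretches. The median distance to the next region was 2631 bases in the window, 2296 on chromosome 14, 3294 on chromosome 7 and 1839 on chromosome 4. Median lengths were 743, 636, 629 and 764 bases in the same order.

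The clonal fold is a score of the caller that is higher where tags pile on fewer positions of the Mll-PTD library. In the authors' deposited table it moved with the window: its median was 0.81 in members (quartiles 0.74 and 0.89), 0.73 in other autosomal regions (0.67 and 0.82) and 0.75 in the rest of chromosome 17. Among regions with a WT tag the medians in the authors' deposited table were 0.81 in the window and 0.72 in other autosomal regions, and among those without one they were 0.805 and 0.82. By place, in the authors' deposited table the median was 0.82 from 6 to 7 Mb and from 13 to 14 Mb, and 0.645 from 9 to 10 Mb. Values above 1 were held by 18 members (4.04%) in the authors' deposited table, against 3.69% of other autosomal regions. Its part in the tag ratios of the window was not tested.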

How the data were processed

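The labels and the submitters' processing notes name Bowtie 0.12.7, HOMER 4.7 and mm9. Per the file headers, the authors called regions with HOMER findPeaks, histone setting, using Mll-PTD tags as target and WT tags as input, with a false discovery rate of 0.001, a 4-fold threshold, a Poisson p-value of 0.0001 and peaks of 500 bases joined into regions. The authors deposited 3 signal columns: Mll-PTD tags at a fixed library size (not printed), the same tags brought to the size of the WT library, and WT tags, where 0.5 was read as 0. The authors' deposited ratio (fold), p-value and score columns were used as given and describe regions within this list alone.

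Unscaled Mll-PTD tags were recovered as scaled tags divided by 0.750, and came out whole within 0.1 in 100% of regions. Ratios carry exact (Clopper-Pearson) intervals and shares exact binomial ones. PCR copies are not independent molecules, and members with matching length and tag counts were kept as separate. The intervals therefore cover counting error only. No test between genotypes was possible with 1 library each.

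The window, the gene lists and the named regions (10 with most tags, 10 with the highest ratio, 5 longest, 5 tallest, both edges) were chosen with earlier results of these data known. For the highest ratios, members needed 39 tags in the larger library, the median of the list. Chains, 100-kb bins, flanks and adjoining members were chosen after seeing the data. No sequence is printed, since mm9 sequence was not used here. The computations were tested on simulated data, using Python 3.11.15 with scipy 1.17.1, pandas 2.3.3 and numpy 2.4.6; plots were drawn in matplotlib 3.10.9.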

Additional observations from a re-analysis of the deposited data

Results flagged for a closer look

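Unlocalised sequence assigned to chromosome 17 lies outside the positional rule, and it held tags in 17 listed regions. There the Mll-PTD library had 945.6 scaled tags, above the 82 tags of the WT library, a ratio of 11.5 (9.22 to 14.6), and 7 of the 17 regions had no WT tag. Its place on the chromosome is not fixed in mm9, and its part in the values of the window was not tested.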

How the results depend on the processing

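The 446 members fell to 278 at 8-fold, to 290 in the better-tagged members (larger tag count no lower than the list median) and to 289 without the first Mb, and stayed within 1.5 times otherwise; a p-value of 1e-05 removed none. With a pseudocount of 5 the median log2 ratio of 3.09 became 2.42, with 0.5 it became 3.23, and without the members lacking WT tags 2.77. Its excess over other autosomal regions, 0.41, kept its sign under every alternative and was 0.29 in the better-tagged members, 0.22 with a WT tag and 0.63 at 500 bases. The share lacking WT tags, 24.7%, was 15.2% in the better-tagged members and 37.9% at 500 bases, and its excess of 10.9 percentage points was 5.02 and 21.4 there. The ratio of sums of 8.60 was 8.19 in the better-tagged members, 7.47 with a WT tag, 9.35 without the 10 members with the most tags and 9.06 without the Mb from 13 to 14; the last 2 alternatives were added after seeing the data. Per kb, the Mll-PTD median of 50.1 scaled tags became 52.9 in the better-tagged members, 48.7 with regions under 1 kb apart merged and 51.2 with a WT tag, and the 4.74 WT tags per kb became 4.07 merged and 6.39 with a WT tag. The 49.6 regions per Mb became 32.2 in the better-tagged members. The 278 members at 8-fold became 172 in the better-tagged members, 175 without the first Mb and 168 with a WT tag. Fewer regions enter each of these subsets by construction. Leaving out members that lack WT tags also raises the WT level by construction, and merged lengths include the unlisted gaps between regions. For other changes the cause was not tested. Of 46 log2 ratios of named regions at another pseudocount, 36 stayed within their counting interval, and the 10 that left it had no WT tag. No paired analysis was possible because there is only 1 library of each genotype. Values by Mb, in chains and in other crowded stretches were not recomputed. Depth limits single members, whose median WT count was 4.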
